A study of Danio rerio with 14 samples.

Results

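Collagen chain genes were followed in the eyes of zebrafish larvae by taking every probe whose gene symbol in the probe annotation consisted of col, a type number, the letter a and a chain number. The rule used names only. It found 42 of 17950 probes, and these belonged to 21 genes. By collagen type, 17 probes (6 genes) were classed as fibrillar, here types I and V only. Another 17 probes (9 genes) were of cartilage types (II, IX, X and XI). Type II, which also forms fibrils, and type XI were thus counted with cartilage and not as fibrillar. Of basement membrane types (IV, XV and XVIII) there were 7 probes (5 genes), and 1 probe was of the transmembrane collagen col17a1a.

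All larvae were of the wild-type AB strain. They were raised in 24-well plates with 1 egg per well, and eyes from 10 larvae made up each sample. The exposed group was kept in the flame retardant tetrabromobisphenol A (TBBPA), a suspected disruptor of the thyroid system, at 200 µg/L until 5 days post fertilization (dpf), and the control group in medium which, per the methods, held the solvent dimethyl sulfoxide. In both treatments 3 samples were taken at 5 dpf and another 3 at 8 dpf, after 3 days in clean water, which gave a control and a TBBPA group at each age. Larvae of 8 dpf had been moved to new plates for this, per the methods. A change with age below can therefore not be told apart from the transfer and the end of solvent or TBBPA exposure. The 12 samples were compared in pairs on 14 two-colour arrays. Control 5 dpf replicate 1 and TBBPA 5 dpf replicate 1 were on 4 arrays each and the other samples on 2. The ages were linked by 4 of the 14 arrays, and each of these held 1 of those samples. Among controls, the only such array set replicate 1 of 5 dpf against replicate 2 of 8 dpf. All levels of an age share the error of the linking arrays. A gap between the ages in the levels below is therefore not one of 3 against 3 independent samples. Two-colour ratios hold no absolute level, so whether a tissue was present in the dissected eyes cannot be read from them. A level below is therefore the log2 abundance of a probe in a sample relative to its own mean over the 12 samples, and levels of different probes cannot be compared.

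Collagens are trimers of long helical chains. Fibrillar collagens of type I, with type V inside the fibrils, give tensile strength to corneal stroma, sclera, skin and bone. Type II fibrils, with types IX and XI, form the framework of cartilage and of the vitreous, and type X is a chain of hypertrophic cartilage in mammals and is also made by bone-forming cells in zebrafish. Type IV forms the network of basement membranes such as the lens capsule, and types XV and XVIII are proteoglycan collagens at the borders of these membranes. Because whole eyes were measured, fewer cells of a type and less RNA per cell cannot be told apart.

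Between 5 and 8 dpf most collagen probes fell in control eyes. With limma and an adjusted p under 0.05 over all probes, 31 of 42 were lower at 8 dpf and 3 were higher, where 18.2% of all probes were lower and 14% higher. The median log2 change was -1.06 over the collagen probes and 0.03 over all probes. Under the stricter threshold of the study, which adds an absolute log2 fold change over 0.75, 23 of the 42 were lower against 4.58% of all probes. When the 12 samples instead of the 14 arrays were the units of the fit, 32 were lower. That fit takes the levels as independent and leaves out the error of the linking arrays that levels of an age share. It gave each collagen probe the same SE for the age change as for TBBPA against control. For age, here and below, it is therefore no test on independent samples.

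The fibrillar and cartilage classes fell furthest. In controls 14 of 17 fibrillar probes were lower and 2 higher, with a median of -1.29. Of the cartilage types 14 of 17 were lower and 0 higher, with a median of -1.25. Of the basement membrane types 3 of 7 were lower and 1 higher, with a median of -0.36. The difference between classes was not tested.

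**Figure D1:**
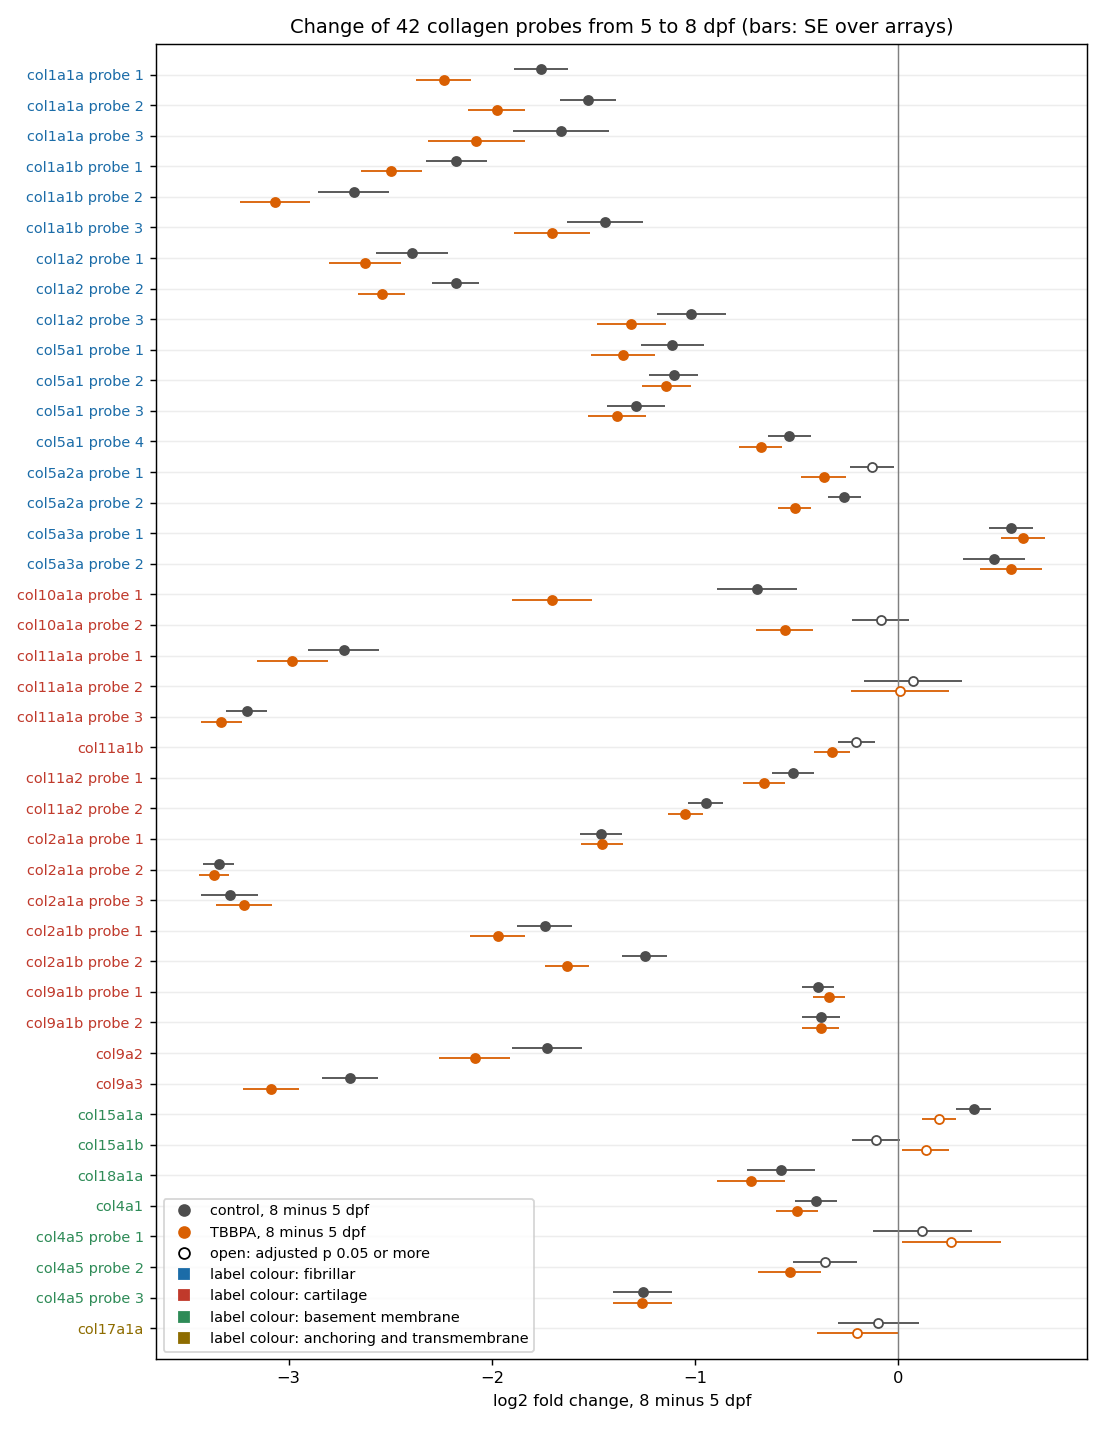
Log2 fold change from 5 to 8 dpf (x axis, 8 minus 5 dpf) of each of the 42 collagen probes (y axis, coloured by class) in control eyes (grey) and in TBBPA eyes (orange). Points are limma estimates, bars their SE over arrays, and open points have an adjusted p of 0.05 or more. Probes of col2a1a, col9a3 and type I and probes 1 and 3 of col11a1a lie far to the left. Those of col5a3a lie to the right of 0, and probe 2 of col11a1a and most basement membrane probes near 0.

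The largest falls were those of type II collagen. Probe 2 of col2a1a (A_15_P658791), the main chain of cartilage fibrils, had levels of 1.58, 1.39 and 1.63 in controls of 5 dpf and of -1.79, -1.78 and -1.82 in those of 8 dpf. No sample of either age came near the other age. The log2 change was -3.34 ± 0.08 (SE over arrays, with n = 3 samples per group, 10.2-fold lower, adjusted p = 9.77e-13). Probe 3 of col2a1a changed by -3.29 ± 0.14 (adjusted p = 1.25e-09), while probe 1 changed by -1.46 ± 0.11 (adjusted p = 2.03e-07). Probes of this gene therefore shared the direction but not the size. Both probes of its duplicate col2a1b fell as well, by 1.74 and 1.25 on the log2 scale.

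Type XI chains, which start the assembly of type II fibrils, divided by probe and by gene. Probe 3 of col11a1a (A_15_P624121) stood at 1.53, 1.52 and 1.40 in control samples of 5 dpf and at -1.70, -1.68 and -1.68 in those of 8 dpf. The samples of an age lay close together and the ages far apart, with a change of -3.21 ± 0.10 (9.23-fold lower, adjusted p = 5.95e-11). Probe 1 of the same gene fell by 2.73 (SE 0.17, adjusted p = 5.95e-08), but probe 2 had a value of 0.07 ± 0.24 (adjusted p = 0.845). The SE of probe 2 was the wider, and which transcript it detects was not tested. The chain col11a2 fell at both probes, by 0.52 and 0.95 on the log2 scale, and col11a1b did not pass the test in controls (-0.21 ± 0.09, adjusted p = 0.0918).

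The 3 chains that make up type IX, which coats type II fibrils, differed in the size of their fall. The col9a3 probe had control levels of 1.29, 0.90 and 1.28 at 5 dpf and of -1.39, -1.52 and -1.32 at 8 dpf. The ages did not overlap, and the change was -2.70 ± 0.14 (6.49-fold lower, adjusted p = 6.21e-09). The col9a2 probe changed by -1.73 ± 0.17 (adjusted p = 4.79e-06), with control 5 dpf replicate 2 at 0.24 below replicates 1 and 3 at 0.96 and 0.88. Both probes of col9a1b changed less, by -0.40 ± 0.08 (adjusted p = 0.00160) and -0.38 ± 0.09 (adjusted p = 0.00612). Of type X, probe 1 of col10a1a fell in controls by 0.70 (SE 0.20, adjusted p = 0.0148) and probe 2 had a value of -0.09 ± 0.14 (adjusted p = 0.663).

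Type I collagen fell at every probe. Probe 2 of col1a2 (A_15_P623771), the second chain of the type I trimer, was at 0.99, 0.70 and 1.01 in control samples of 5 dpf and at -1.36, -1.32 and -0.99 in those of 8 dpf. All samples of 5 dpf were above all of 8 dpf, with a change of -2.18 ± 0.12 (4.52-fold lower, adjusted p = 9.86e-09). The other col1a2 probes changed by -2.39 ± 0.18 and -1.02 ± 0.17. The 3 probes of col1a1a, one of the duplicated genes for the first chain, changed by -1.76 ± 0.13, -1.53 ± 0.14 and -1.66 ± 0.24. Those of its duplicate col1a1b changed by -2.17, -2.68 and -1.44. The symbols separate these duplicates, but whether their probes cross-hybridise was not tested.

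Type V chains, which are thought to limit the diameter of corneal fibrils, did not move together. All 4 probes of col5a1 fell, by 0.54 to 1.29 on the log2 scale. For col5a2a only probe 2 passed the test in controls, at -0.27 ± 0.08 (adjusted p = 0.0225). Both probes of col5a3a rose instead, and these were the largest rises among the collagen probes in controls. Probe 1 of col5a3a (A_15_P186906) had levels of -0.21, -0.17 and -0.29 at 5 dpf and of 0.43, 0.44 and -0.05 at 8 dpf. Control 8 dpf replicate 3 was the lowest of its group but still above every sample of 5 dpf, and the change was 0.55 ± 0.11 (1.47-fold higher, adjusted p = 0.00156). Probe 2 of col5a3a rose by 0.47 ± 0.15 (adjusted p = 0.0308), with replicate 3 at -0.26, no higher than any control sample of 5 dpf. With the 12 samples as units probe 1 of col5a3a passed the test (adjusted p = 0.0157) and probe 2 did not (adjusted p = 0.162), nor did probe 2 without control 8 dpf replicate 2 (0.31, adjusted p = 0.339).

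Basement membrane chains changed less and in both directions. The type IV chain col4a1 was at 0.12, -0.01 and 0.34 in control samples of 5 dpf and at -0.22, -0.26 and -0.27 in those of 8 dpf. The ages did not overlap, and the change was small (-0.41 ± 0.10, adjusted p = 0.00843). The 3 probes of col4a5 disagreed, with probe 3 lower (-1.26 ± 0.14, adjusted p = 1.58e-05), and with probes 1 and 2 at 0.12 ± 0.24 and -0.36 ± 0.16 without passing the test. The proteoglycan collagen col18a1a fell by 0.58 (SE 0.17, adjusted p = 0.0171) and col15a1a rose by 0.37 (SE 0.08, adjusted p = 0.00432). Its duplicate col15a1b (-0.11 ± 0.12) and the hemidesmosome collagen col17a1a (-0.10 ± 0.20) did not pass the test.

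In eyes of larvae that had been raised in TBBPA the fibrillar and cartilage classes again fell furthest between 5 and 8 dpf. There 35 of 42 collagen probes were lower at 8 dpf and 2 were higher, against 22.4% and 20.9% of all probes. Under the threshold of the study 24 were lower, against 6.19%. The class medians were -1.39 for fibrillar, -1.63 for cartilage and -0.50 for basement membrane types. Probe 2 of col2a1a changed by -3.37 ± 0.08, close to its value in controls, and probe 1 of col10a1a by -1.70 ± 0.20. Single probes of col5a2a, col11a1b, col10a1a and col4a5 that had not passed the test in controls did so here, but whether the ages differed more after TBBPA is answered only by the test of that difference, given further below.

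**Figure D2:**
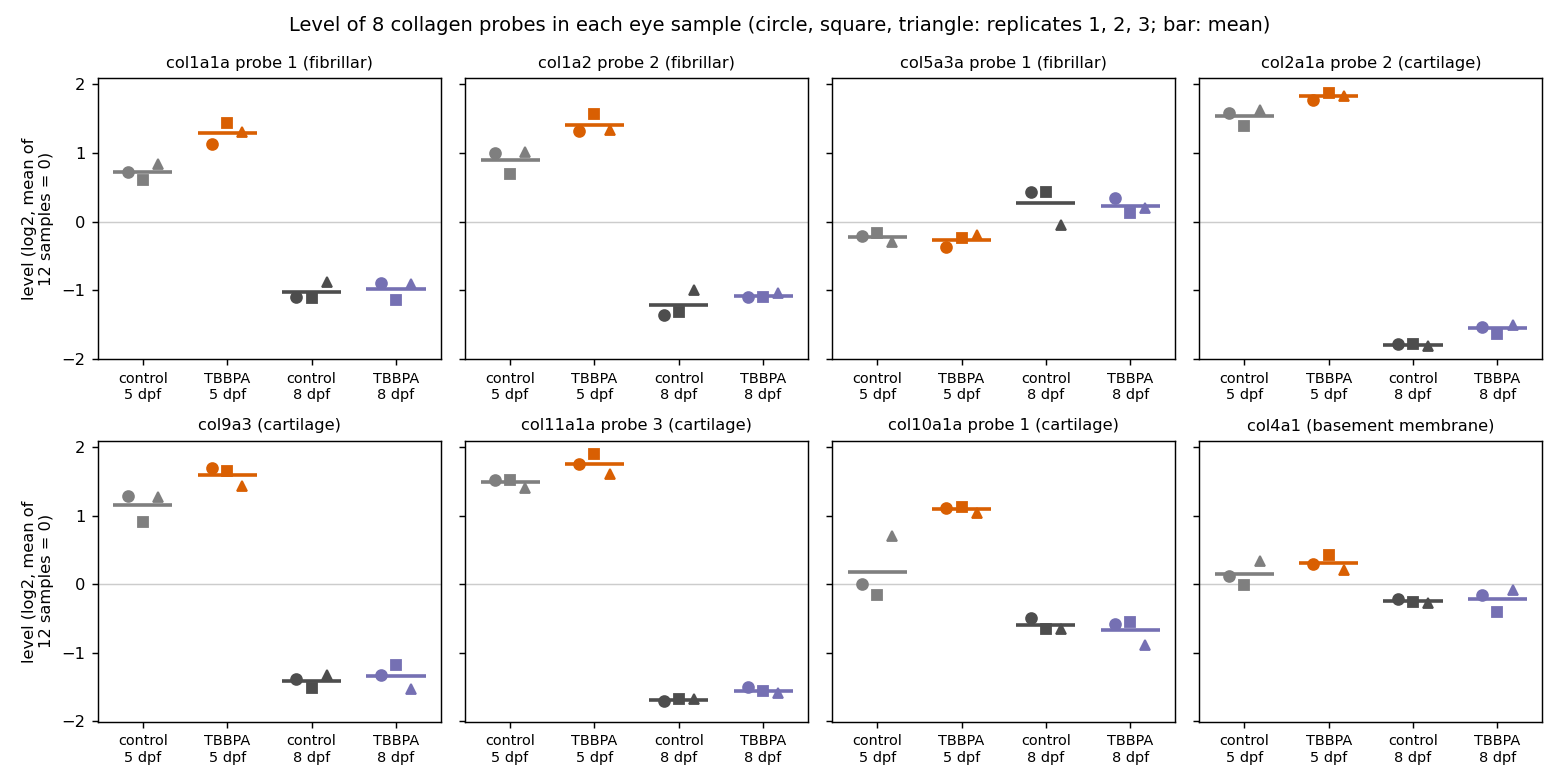
Level of 8 collagen probes (y axis, log2, mean of the 12 samples = 0) in each of the 12 samples by group (x axis). Circles, squares and triangles are replicates 1, 2 and 3, and bars are group means. In every panel but col5a3a, which goes the other way, all samples of 8 dpf lie below all samples of 5 dpf, and at 5 dpf col10a1a shows the widest gap between TBBPA and control and the widest spread among controls.

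At 5 dpf, at the end of exposure, collagen probes tended to be higher in TBBPA eyes than in control eyes. The difference was larger in size than the age change in controls for 6 of the 42 probes, among them both probes of col10a1a. With arrays as units 17 of 42 passed the test and all 17 were higher, where 4.23% of all probes were higher and 2.84% lower. These were 8 of 17 fibrillar, 8 of 17 cartilage and 1 of 7 basement membrane probes. The medians were 0.35, 0.27 and 0.14, that of all collagen probes was 0.26 and that of all probes was 0.00. These calls depended on the unit of replication. When the 12 samples were the units, 0 of 42 passed and the smallest adjusted p was 0.149, with 1 of 17950 probes called in all. In that fit 21 of 42 were higher and 0 lower at an unadjusted p under 0.05, against 4.32% and 2.86% of all probes. The estimated share of variance due to the RNA sample was 0 in this fit, which has no dye term. The SE and p given here therefore count arrays and not plates. With a dye term the share was 0.32 and 13 of 42 passed, all higher, where 2.01% of all probes were higher.

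Under the threshold of the study 1 collagen probe was called at 5 dpf, against 0.357% of all probes. It was probe 1 of col10a1a (A_15_P661781), with levels of 0.00, -0.15 and 0.70 in the control samples and of 1.11, 1.12 and 1.04 in the TBBPA samples. All TBBPA samples were above all controls, and control replicate 3 stood well above the other controls. The log2 fold change was 0.95 ± 0.13 (1.93-fold higher, adjusted p = 0.000925), and with samples as units the adjusted p was 0.157. Probe 2 of col10a1a rose by 0.49 ± 0.09 (adjusted p = 0.00543), but control replicate 3 at 0.43 lay above TBBPA replicate 1 at 0.31.

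Among the other cartilage types, both probes of col2a1b (0.39 ± 0.09 and 0.37 ± 0.07), col9a3 (0.45 ± 0.09, adjusted p = 0.00759) and col9a2 (0.41 ± 0.11, adjusted p = 0.0417) were higher. The value of col9a2 was 0.21 without control replicate 2 and 0.27 without TBBPA replicate 2, and neither passed the test. The col9a3 levels after TBBPA were 1.70, 1.65 and 1.43 against 1.29, 0.90 and 1.28 in controls, with no overlap. Of col2a1a only probe 2 passed, at 0.27 ± 0.05 (adjusted p = 0.00517), with TBBPA levels of 1.77, 1.87 and 1.82 above every control. Probes 1 and 3 of col2a1a had values of 0.04 ± 0.07 and 0.25 ± 0.09. Probe 3 of col11a1a was higher by 0.27 ± 0.07 (adjusted p = 0.0242), and probes 1 and 2 had values of 0.38 ± 0.11 (adjusted p = 0.0625) and 0.14 ± 0.16. The probes of col9a1b (0.03 and -0.01), col11a1b (0.15) and col11a2 (0.20 and 0.18) did not pass.

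Type I collagen made up most of the fibrillar calls. Probe 1 of col1a1a (A_15_P106798) was at 0.73, 0.60 and 0.84 in controls and at 1.13, 1.43 and 1.30 after TBBPA. The groups did not overlap, and the log2 fold change was 0.52 ± 0.09 (1.44-fold higher, adjusted p = 0.00268). Probe 2 of col1a1a was higher by 0.47 ± 0.09 (adjusted p = 0.00699) and probe 3 had a value of 0.41 ± 0.15 (adjusted p = 0.133). For col1a2, probe 2 stood at 1.31, 1.57 and 1.33 after TBBPA against 0.99, 0.70 and 1.01 in controls, again without overlap (0.48 ± 0.08, adjusted p = 0.00208). Probe 1 of col1a2 was higher as well (0.44 ± 0.12, adjusted p = 0.0336), and probe 3 had a value of 0.28 ± 0.11 (adjusted p = 0.137). Of col1a1b, probes 1 and 2 rose by 0.52 ± 0.10 and 0.60 ± 0.11 and probe 3 had a value of 0.31 ± 0.12 (adjusted p = 0.140). In type V, probe 3 of col5a1 (0.36 ± 0.09, adjusted p = 0.0295) and probe 2 of col5a2a (0.23 ± 0.05, adjusted p = 0.0164) passed. Without TBBPA replicate 2 the value of probe 2 of col1a1a was 0.31, and without control replicate 2 that of probe 3 of col5a1 was 0.22, and neither passed the test. The col5a3a probes had values of -0.07 and -0.05.

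Basement membrane chains contributed 1 call, probe 3 of col4a5 (0.39 ± 0.09, adjusted p = 0.0212), where the other col4a5 probes had values of -0.10 ± 0.16 and 0.21 ± 0.10. The values of col4a1 (0.14 ± 0.07, adjusted p = 0.241), col15a1a (0.17 ± 0.06), col18a1a (0.09 ± 0.11), col15a1b (-0.15 ± 0.08) and col17a1a (0.18 ± 0.13) did not pass the test.

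The levels per sample gave a count that needs no model of the spread. At 5 dpf the 3 TBBPA samples lay wholly above the 3 controls for 22 of 42 collagen probes, against 8.54% of all probes, and wholly below for 1 (col15a1b), against 9.18%. An exact permutation test of 3 against 3 samples cannot give a p under 0.1, so none was made per probe. Averaged over the 42 probes, controls of 5 dpf were at 0.51, 0.31 and 0.58 and TBBPA samples at 0.66, 0.90 and 0.72. Control replicate 2 was the lowest and TBBPA replicate 2 the highest, and without them 4 and 5 of the 42 probes were called. Without control replicate 1, which takes 4 of the 14 arrays with it, 0 were called, and without TBBPA replicate 1, on 4 arrays as well, 9 were.

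**Figure D3:**
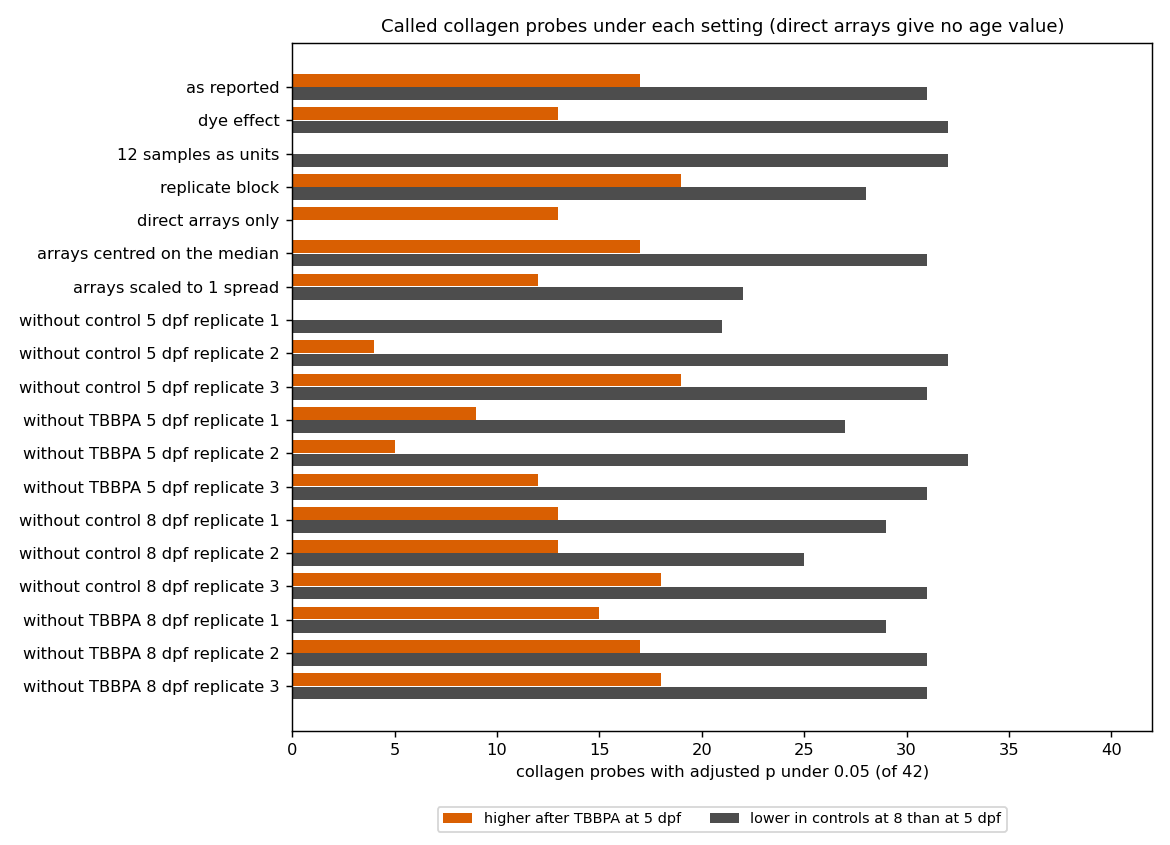
Number of the 42 collagen probes (x axis) with an adjusted p under 0.05 under each setting of the fit (y axis), higher after TBBPA at 5 dpf (orange) and lower in controls at 8 than at 5 dpf (grey). The count after TBBPA is 17 as reported and 0 with the 12 samples as units or without control 5 dpf replicate 1, while the age count stays between 21 and 33 where it could be fitted.

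**Figure D4:**
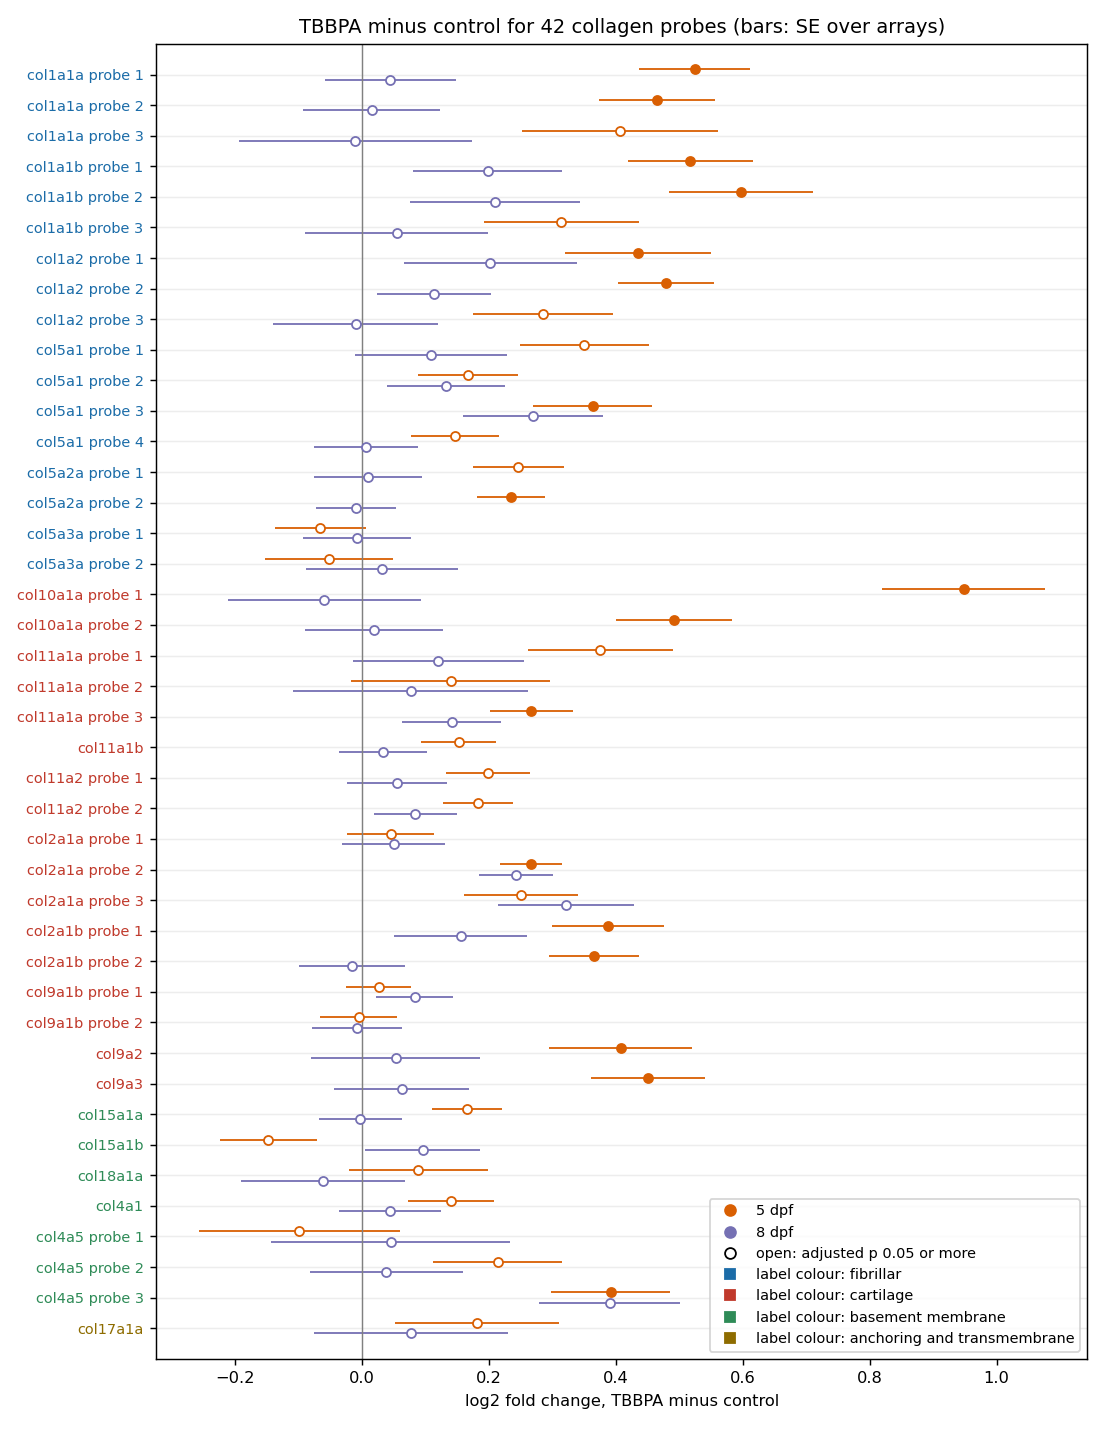
Log2 fold change of TBBPA minus control (x axis) for each of the 42 collagen probes (y axis, coloured by class) at 5 dpf (orange) and 8 dpf (violet). Points are limma estimates, bars their SE over arrays, and open points have an adjusted p of 0.05 or more. At 5 dpf 17 points are filled, with probe 1 of col10a1a furthest right at 0.95, and at 8 dpf no point is filled.

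At 8 dpf, after the days in clean water, 0 of 42 collagen probes differed between TBBPA and control with limma, where 0.696% of all probes were higher and 0.696% lower. At an unadjusted p under 0.05, 4 were higher and 0 lower, against 5.16% and 6.56% of all probes. With samples as units or with a dye effect 0 were called at an adjusted p under 0.05. The median was 0.05, and the TBBPA samples lay wholly above the controls for 3 probes and wholly below for 0, against 3.48% and 2.69% of all probes. The value nearest to the threshold was that of probe 2 of col2a1a, with levels of -1.53, -1.64 and -1.50 after TBBPA and of -1.79, -1.78 and -1.82 in controls. The groups did not overlap, and the log2 fold change was 0.24 ± 0.06 (adjusted p = 0.0555). Probe 3 of col4a5 had a value of 0.39 ± 0.11 (adjusted p = 0.120), equal to that at 5 dpf, with levels spread from -1.20 to -0.33 in controls and from -0.61 to -0.19 after TBBPA. Probe 1 of col10a1a had a value of -0.06 ± 0.15, probe 1 of col1a1a 0.04 ± 0.10 and probe 2 of col1a2 0.11 ± 0.09.

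The difference between the effects at 8 and at 5 dpf was tested directly, and no collagen probe passed (0 of 42, against 0.0613% of all probes). At an unadjusted p under 0.05, 9 were lower and 0 higher, against 6.94% and 4.6% of all probes. With samples as units 4 were lower and 0 higher, against 1.21% and 0.992%. Probe 1 of col10a1a had the largest difference (-1.01 ± 0.20, adjusted p = 0.0825). The differences of probe 1 of col1a1a (-0.48 ± 0.14, adjusted p = 0.172) and of col9a3 (-0.39 ± 0.14, adjusted p = 0.285) did not pass either, and that of probe 2 of col2a1a was -0.02 ± 0.08. A smaller effect at 8 dpf than at 5 dpf was thus not shown for any single chain.

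Genes that act on collagen outside the set were read from lists chosen by function. Beside their counts stand the shares of all probes given above, 18.2% lower and 14% higher with age in controls, and 4.23% higher and 2.84% lower after TBBPA at 5 dpf. Their calls at 5 dpf rested on arrays as units, and with the 12 samples as units 0 probes of any function or marker list were called there. Of the helpers of chain folding, 6 of 13 probes fell and 2 rose with age in controls, and 1 of 13 was higher after TBBPA at 5 dpf. The collagen chaperone serpinh1b fell by 1.71 on the log2 scale from 5 to 8 dpf (adjusted p = 1.71e-05), and its value after TBBPA at 5 dpf was 0.31 (adjusted p = 0.164). The lysyl hydroxylase plod1a fell at 1 of 2 probes (-0.78, adjusted p = 0.000203), and crtap, part of a prolyl hydroxylase complex, was the folding gene that was higher after TBBPA (0.23, adjusted p = 0.0274). Of the 11 secretion and processing probes 1 fell and 1 rose with age in controls, against 18.2% and 14% of all probes. After TBBPA at 5 dpf 3 of the 11 were higher, against 4.23% of all probes. They were the coat proteins sec23b (0.29) and sec13 (0.26) and the procollagen protease bmp1a (0.21). Without TBBPA 5 dpf replicate 1 the value of sec13 was 0.12 (adjusted p = 0.575). The other calls were not stable either. With single samples left out, 0 to 1 of the 13 folding probes and 0 to 3 of the 11 secretion and processing probes were higher at 5 dpf.

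Of 18 probes for proteins that bind collagen in the matrix, 10 fell and 1 rose with age in controls, against 18.2% and 14% of all probes, and both counts were the same with the 12 samples as units. After TBBPA at 5 dpf 8 were higher and 0 lower, against 4.23% and 2.84%, and 1 to 10 were higher when single samples were left out. Matrilin matn1 of cartilage fell by 2.07 with age and was higher by 0.49 after TBBPA (adjusted p = 0.00227), and the fibril-bound tgfbi fell by 1.32 and was higher by 0.41 (adjusted p = 0.00529). The corneal proteoglycan kera went another way, rising with age by 0.77 and being higher after TBBPA by 0.77 at 5 dpf (adjusted p = 0.000993) and by 1.04 at 8 dpf (adjusted p = 0.00128). It was the only called gene of these function lists at 8 dpf. That call rested on arrays as units, and with the 12 samples as units 0 of all probes were called at 8 dpf. Of 9 probes for collagen-degrading proteases and their inhibitors, 4 were higher at 5 dpf, namely mmp2 (0.68, adjusted p = 0.00730), mmp9 (1.28, adjusted p = 0.0139), mmp14b (0.39) and mmp14a (0.40). The mmp9 probe was at -0.30, -0.43 and -0.51 in controls and at -0.02, 0.73 and 2.47 after TBBPA. The groups did not overlap, but TBBPA replicate 3 stood far above the others. The mmp9 value was 0.64 without TBBPA replicate 3 (adjusted p = 0.0188) and 1.98 without TBBPA replicate 1 (adjusted p = 0.00867). It did not pass without control 5 dpf replicate 1 (1.26, adjusted p = 0.153) or without TBBPA 5 dpf replicate 2 (1.35, adjusted p = 0.0789). With single samples left out, 0 to 4 of the 9 protease and inhibitor probes were higher at 5 dpf. Neither the 6 receptor probes nor the 6 probes of laminins and agrin in basement membranes held a call at 5 dpf, and of 2 crosslinking probes none did. With age in controls, 2 of the 9 protease and inhibitor probes fell and 0 rose, against 18.2% and 14% of all probes. Of the 2 crosslinking probes 0 fell and 1 rose. The receptor probes and those of laminins and agrin held no call with age in controls. The comparison at 5 dpf and the age change in controls share the control samples of 5 dpf, so their directions are not independent.

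Marker lists of the tissues around the retina changed at the same time. After TBBPA at 5 dpf 6 of 10 cartilage marker probes were higher, 3 of 9 of corneal stroma, sclera and fibroblasts, 35 of 62 of skin and cornea epithelium, 12 of 31 of lens, 8 of 45 of skeletal muscle, 2 of 5 of bone and 2 of 10 of vascular endothelium, with 0 lower in each. Of 29 photoreceptor probes 4 were higher and 5 lower, and of 32 inner retina probes 0 were higher and 4 lower. Of all probes 4.23% were higher and 2.84% lower. With single samples left out, the count higher was 1 to 5 for cartilage and 2 to 50 for skin and cornea epithelium. It was 0 to 16 for lens, 0 to 12 for skeletal muscle, 0 to 7 for the stroma list, and 0 to 2 for bone and for vascular endothelium. For photoreceptors 1 to 6 were higher and 0 to 6 lower, and for inner retina 0 were higher and 1 to 6 lower. The mean level of the cartilage markers was 0.30 to 0.40 in controls of 5 dpf and 0.56 to 0.69 in the TBBPA samples. That of the skin and cornea epithelium markers was 0.18 to 0.61 in controls and 0.68 to 0.88 after TBBPA, and that of the stroma list was -0.14 to 0.23 and 0.24 to 0.43. The groups did not overlap for these lists, though for the stroma list control replicate 3 and TBBPA replicate 3 all but met. The lens (-0.55 to -0.40 in controls, -0.21 to 0.05 after TBBPA) and inner retina lists (-0.05 to 0.17 and -0.15 to -0.09) did not overlap either, and the bone list all but met (-0.14 to 0.06 and 0.06 to 0.20). The groups overlapped for skeletal muscle (-0.05 to 0.47 and 0.34 to 0.52), photoreceptors (0.14 to 0.25 and 0.14 to 0.32) and vascular endothelium (-0.08 to 0.01 and 0.00 to 0.09).

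With age in controls, 9 of 10 cartilage marker probes and 39 of 62 skin and cornea epithelium probes were lower, while 18 of 31 lens probes were higher, against 18.2% of all probes lower and 14% higher. With the 12 samples as units these counts were 8, 35 and 14. Photoreceptor probes fell as well, with 15 of 29 lower and 1 higher, and of skeletal muscle probes 17 of 45 were lower and 2 higher. The stroma list had 4 of 9 lower and 1 higher, and vascular endothelium 2 of 10 lower and 1 higher. For inner retina 4 of 32 were lower and 7 higher, and for bone 1 of 5 was lower and 2 higher. The mean level of the cartilage markers was -0.56 to -0.51 in the control samples of 8 dpf and that of the skin and cornea epithelium markers was -0.81 to -0.13. The part of these tissues in the collagen results was not tested. The lists share members with those of the matrix proteins (matn1, matn4, epyc, kera, lum, dcn, fmoda and ogna), so they are no separate count of them.

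**Figure D5:**
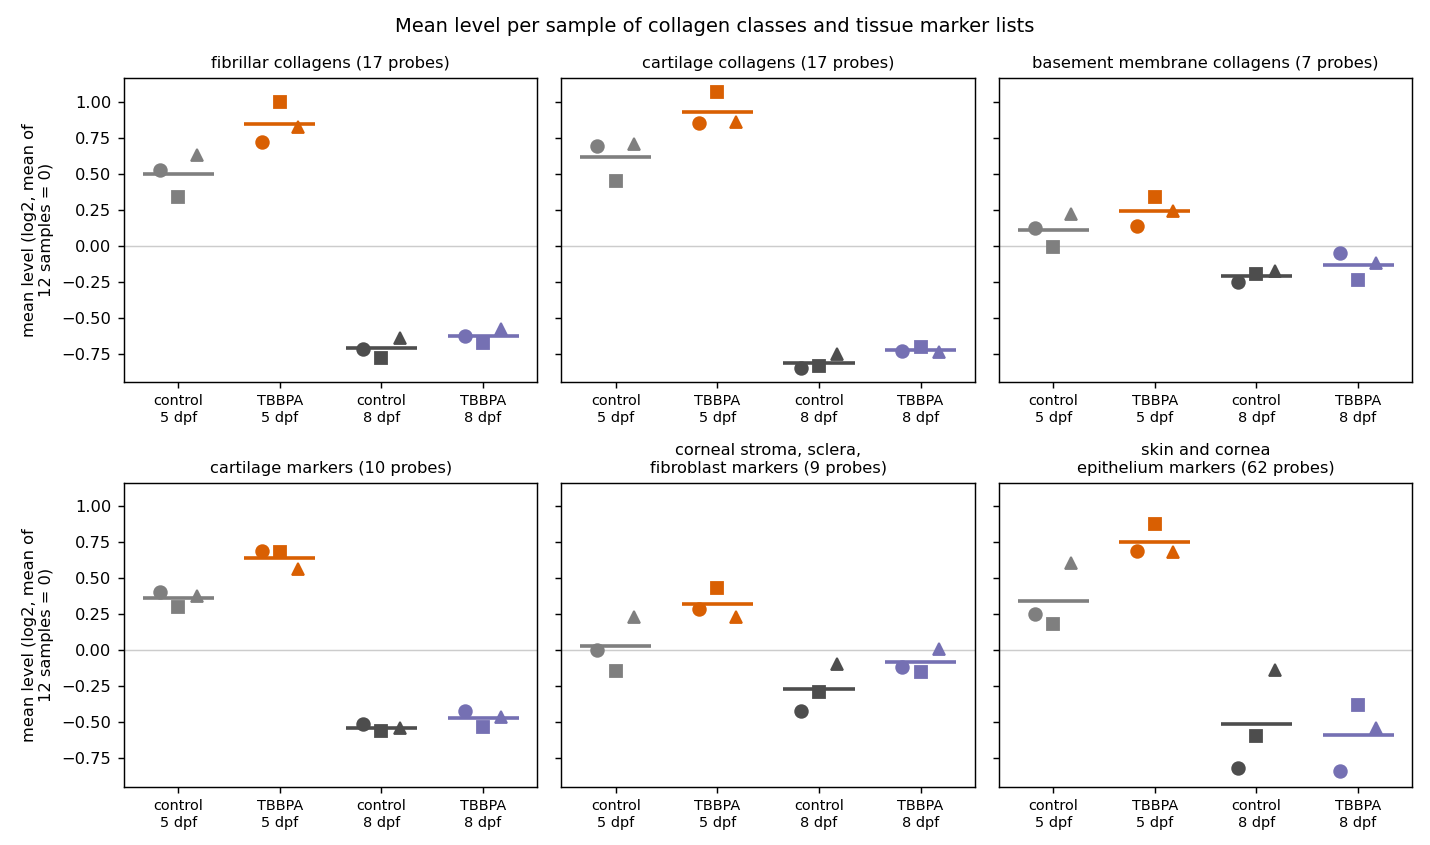
Mean level per sample (y axis, log2, mean of the 12 samples = 0) of the 3 collagen classes (upper panels) and of 3 tissue marker lists (lower panels) by group (x axis). Circles, squares and triangles are replicates 1, 2 and 3, and bars are group means. The cartilage collagens and the cartilage markers both lie lower at 8 than at 5 dpf, and of the 3 collagen classes the basement membrane types span the smallest range.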

How the data were processed

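RNA from 12 pools of larval eyes was compared on 14 two-colour Agilent arrays. According to the methods, the authors quantified the spots, removed spots not above background, applied a normal-exponential background correction and loess within arrays and used limma (version 3.34.4 per the labels). The deposited values are log2 ratios of Cy5 over Cy3 for 17950 probes, with base and direction taken from the methods and dye labels. When 1 array was reversed, the residual sum of squares became 1.02 to 1.88 times as large.

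A linear model with 1 coefficient per group was fitted to the 14 arrays with limma 3.58.1 in R 4.3.3, with the RNA sample as a random effect (estimated share 0), 11 residual degrees of freedom, two-sided moderated tests and Benjamini-Hochberg adjustment over all probes. A dye term, samples as units, direct arrays, centring, scaling, gene averages and left-out samples were alternatives. Levels per sample are least-squares estimates from the same arrays. Replicates were separate plates, and no scan or slide batch is given in the sources used here.

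Of the probes, 14135 carried a symbol, and 27 of the 42 collagen probes were matched by accession to a RefSeq table (GRCz12tu, names only). Of the symbols, 3 were updated (to col10a1a, col9a1b and col18a1a). Named probes are those called after TBBPA, the 3 largest rises and falls with age in controls, and a set of chains always named. In the function lists at most 4 called genes each were named, and their fits with samples as units or left out were chosen after seeing the data. The members and lists were chosen with earlier results of these data known. Array number and the 3 samples per group limit the precision.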

Additional observations from a re-analysis of the deposited data

How the results depend on the processing

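The fall of collagen probes from 5 to 8 dpf held under the alternatives run, though with fewer calls in some, and the calls after TBBPA at 5 dpf did not. With arrays scaled to 1 spread, 22 of the 34 age calls in controls and 29 of the 37 in TBBPA eyes were kept. For age, all alternatives rested on the 4 arrays that link the ages or on fewer of them. The fit with samples as units also left out the error of these arrays that levels of an age share. Of the 42 probes, 17 were higher after TBBPA at 5 dpf, and this count was 0 with the 12 samples as units, 11 (genes) with probes averaged per gene and 1 under the threshold of the study. With single samples left out it was 0 to 19. All 17 kept their direction under the alternatives run. With a dye effect 13 were called (with a share of 0.32 for the RNA sample), where 2.01% of all probes were higher. With direct arrays only 13 were called and with arrays scaled to 1 spread 12. Shares over all probes are not given here for the direct, scaled, block, averaged or left-out fits, so their counts have no background beside them. The count higher at 8 dpf was 0, and 0 to 1 with single samples left out. For the difference of the effects the count lower was 0, and 0 to 2 with samples left out, at 2 without control 5 dpf replicate 3 and 1 without TBBPA 5 dpf replicate 3. In controls 31 probes fell with age (21 to 33 with samples left out), or 14 genes with probes averaged. The 3 that rose became 0 with scaled arrays, 0 under the threshold of the study and 0 to 3 with samples left out. In TBBPA eyes 35 fell (29 to 35), or 17 genes with probes averaged, and the 2 that rose became 1 with the 12 samples as units, 1 with scaled arrays, 1 with probes averaged, 0 under the threshold of the study and 0 to 4 with samples left out. The cause was not tested, except that averaging and leaving out samples test fewer features or samples. With a replicate block, 19 were higher at 5 dpf and 1 at 8 dpf, and 28 and 35 fell with age in control and TBBPA eyes. Replicate numbers gave no clear pairing. Deviations of same-numbered samples correlated at r of -0.46 to 0.68, with 6 of 18 over 0.1. Those of samples with other numbers correlated at r of -0.73 to 0.59, with 9 of 36 over 0.1. Of 36 comparisons, 14 were best with their own number. The r of 0.68 came from a pair that shares an array, so array error is mixed in. The table holds ratios only, so signal over background is unknown here.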
